A study of Mus musculus with 18 samples.

Results

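The genes described here are 7 genes of acid-base handling, chosen by name from the 78239 genes in each of 2 count tables. They are the carbonic anhydrases *Car2*, *Car4*, *Car9*, *Car12* and *Car14* and the sodium bicarbonate cotransporters *Slc4a4* and *Slc4a7*. The study put a normoxia-stable mouse *Hif1a* (*nsHif1a*), in which 3 exchanged amino acids prevent oxygen-dependent degradation and inactivation, into rods or into cultured cells and asked what chronic HIF1 activity does. Retinal RNA was sequenced at 3 weeks post injection (wpi) from 5 mice injected subretinally with AAV::*nsHif1a* and from 5 injected with AAV::eGFP, whose control virus carries enhanced green fluorescent protein. In both viruses a mouse rhodopsin promoter (mOP) drives the transgene in rods only, and the transduced area was part of the retina. The mice were injected between postnatal days 29 and 32. Their strain is C57BL/6J in the labels and 129S6 in the study's methods, and the labels give no sex. RNA of 661W cells was sequenced 20 h after transfection with a plasmid for *nsHif1a* or for eGFP, both under the ubiquitous CMV promoter, with 4 libraries per group. 661W is a mouse retinoblastoma-derived line that is used as a model of photoreceptors, and the libraries are of 1 line.

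Metabolism turns out acid as CO2 and, when glucose is fermented, as lactate with a proton. Carbonic anhydrases catalyse the reversible hydration of CO2 to bicarbonate and a proton. CAR2 does so in the cytosol, CAR4 is held on the outer cell surface by a lipid anchor, and CAR9, CAR12 and CAR14 span the membrane with the catalytic domain outside. SLC4A4 (NBCe1) and SLC4A7 (NBCn1) bring bicarbonate into the cell together with sodium, the first electrogenically and the second electroneutrally, and thereby counter acid. In the retina *Car2* and *Car14* are known from Müller glia, *Slc4a4* from the same glia, and *Slc4a7* from photoreceptors, which degenerate in mice that lack it. *Car9* is a classical target gene of HIF1 in hypoxic tumour cells.

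On GRCm39, *Car2* (ENSMUSG00000027562.13) lies on the plus strand of chromosome 3 from 14951317 to 14967568 and *Car14* (ENSMUSG00000038526.15) on the minus strand of the same chromosome from 95805079 to 95812646. *Car4* (ENSMUSG00000000805.19) lies at chr11:84848020-84856879, *Car9* (ENSMUSG00000028463.15) at chr4:43506966-43513729, *Car12* (ENSMUSG00000032373.16) at chr9:66615426-66674186 and *Slc4a4* (ENSMUSG00000060961.17) at chr5:89034345-89387514, all on the plus strand. *Slc4a7* (ENSMUSG00000021733.12) is on the minus strand at chr14:7669819-7767484. At most 0.523% of the 50-base words in the transcripts of any of these genes (*Slc4a7*) also occur in another gene, so that few reads could be split between copies.

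The core letters of the HIF binding site are ACGTG or, less often, GCGTG. They were searched on both strands in the 300 bases around the annotated start of each gene's canonical transcript, 250 before it and 50 from it on. ACGTG was found in the window of *Car9* alone of the 7 genes, against 20.7% of the 21723 windows of protein-coding genes. GCGTG was found in the windows of *Car2*, *Slc4a4* and *Slc4a7*, against 37% of all windows. The windows of *Car4*, *Car12* and *Car14* held neither. The window of *Car9* is shown because this gene had the clearest difference in the cells, and that of *Car2* because it is the most abundant of these genes in the retina. Both were chosen after the values were seen. They are the plus strand of GRCm39 at chr4:43506716-43507015 and chr3:14951077-14951376, printed 5′ to 3′ with the motif letters in capitals.
Car9: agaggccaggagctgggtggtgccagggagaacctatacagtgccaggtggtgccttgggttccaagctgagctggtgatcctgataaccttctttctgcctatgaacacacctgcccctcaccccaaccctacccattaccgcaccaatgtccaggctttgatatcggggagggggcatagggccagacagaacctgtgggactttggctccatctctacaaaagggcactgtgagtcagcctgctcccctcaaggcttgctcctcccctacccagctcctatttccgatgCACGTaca
Car2: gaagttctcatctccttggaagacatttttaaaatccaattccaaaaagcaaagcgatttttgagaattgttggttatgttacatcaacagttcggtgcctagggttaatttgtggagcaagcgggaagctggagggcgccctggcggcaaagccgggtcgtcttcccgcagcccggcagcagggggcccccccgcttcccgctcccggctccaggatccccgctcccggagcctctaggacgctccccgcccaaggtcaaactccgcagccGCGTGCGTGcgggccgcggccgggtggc
In *Car9* the motif is on the minus strand and reads CACGT here, at bases 43 to 47 counted from 1 at the start. In *Car2* 2 overlapping copies of GCGTG on the plus strand span bases 23 to 31. A match in such a window is a description of letters and not a measured binding site.

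The libraries held 12898220 to 16167522 counts (AAV::eGFP), 13723692 to 15813892 (AAV::*nsHif1a*), 13424326 to 17051276 (cells with eGFP) and 14281793 to 17809585 (cells with *nsHif1a*). Levels are given as CPM, a gene's share of all counts in its library on a fixed total, with library sizes scaled by TMM. A gene was called when limma, fitted on all genes that passed a filter on low counts, gave a Benjamini-Hochberg adjusted *p* under 0.05 together with a log2 fold change (log2FC) of more than 0.5 in size. In the retina *Hif1a* was at 668 ± 26.1 CPM in the control group (SD, n = 5) and at 687 ± 31.6 CPM (n = 5) in the other, a log2FC of 0.05 (adjusted *p* = 0.504). Total *Hif1a* RNA therefore did not set the retinal groups apart. It holds the RNA of the mouse's own gene from all retinal cells together with that of the delivered gene. The RNA of the delivered gene was not measured on its own, so its presence cannot be judged from this value. By Western blot, the study reports a marked rise of HIF1A protein in extracts of whole retinas after AAV::*nsHif1a*. In the cells total *Hif1a* was at 157 ± 6.79 CPM (n = 4) and 1561 ± 384 CPM (n = 4), a log2FC of 3.26 (adjusted *p* = 1.18e-05). The retinal libraries expressed their rod markers at a summed 39127 to 54953 CPM, whereas the same 10 genes summed to 8.89 to 13.2 CPM in the cells. The X inactivation transcript *Xist* was counted 19492 to 28595 times in AAV::eGFP retinas 1 and 2 and in all AAV::*nsHif1a* retinas but 1 to 3 times in AAV::eGFP retinas 3, 4 and 5, so that sex class and vector overlap only in part. The γ-crystallin genes of the lens took up to 0.28% of the counts with AAV::eGFP and up to 1.82% with AAV::*nsHif1a*. In the cells, replicates 1 and 2 of a group resembled each other, as did 3 and 4. Their squared differences were 1.47 to 1.62 times sampling noise, whereas other pairs differed by 3.83 to 9.1 times that noise. Each was kept as its own sample.

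The first question was whether the retina with *nsHif1a* in its rods expressed these genes at other levels. Of the 7 genes, 6 passed the filter in the retina and 0 were called, where 1.99% of the 18859 genes tested were called (1.08% up and 0.912% down). *Car14* and *Slc4a7* had an unadjusted *p* under 0.05, as did 21.7% of all genes tested, and DESeq2 and edgeR's quasi-likelihood test called none of the 6 either. In all 7 genes the values of both groups overlapped, whereas in 5.94% of the genes tested they did not. As whole retinas were sequenced, a change in the number of cells of a type and a change in RNA per cell cannot be told apart. The limits below hold for the whole retina, in which a larger change confined to the transduced rods would be diluted.

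*Car2*, the cytosolic enzyme, had by far the most RNA of these genes for its length, with 226 ± 6.56 CPM per kb of exon (SD, n = 5) in AAV::eGFP retinas on a scaling over all 18 libraries. It was counted 5733, 6648, 7084, 6181 and 5636 times in AAV::eGFP retinas 1 to 5 and 5846, 7171, 6468, 6649 and 6404 times in AAV::*nsHif1a* retinas. These counts corresponded to 428 ± 12.4 CPM (SD, n = 5) and 443 ± 19.3 CPM (n = 5). The log2FC was 0.06 (SE 0.04, 95% limits -0.02 to 0.14, adjusted *p* = 0.34), with both limits inside the fold change threshold.

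The membrane-bound enzymes differed widely in level. *Car14* followed *Car2* with 32.5 ± 3.54 CPM per kb (n = 5) in AAV::eGFP retinas. Its level was 67.8, 80.0, 87.1, 74.8 and 67.7 CPM in AAV::eGFP retinas and 86.4, 87.4, 83.1, 89.9 and 74.6 CPM in AAV::*nsHif1a* retinas. The means were 75.5 ± 8.30 CPM (SD, n = 5) and 84.3 ± 5.94 CPM (n = 5). The log2FC of 0.19 (SE 0.07, 95% limits 0.04 to 0.35) had an unadjusted *p* of 0.0172 and did not pass the adjustment (adjusted *p* = 0.132). The highest AAV::eGFP retina lay above the mean of the other group.

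*Car9* was scarce in the retina. It had 8, 21, 9, 19 and 24 counts in AAV::eGFP retinas and 18, 17, 14, 5 and 30 counts in AAV::*nsHif1a* retinas. The lowest and the highest retina were both from the AAV::*nsHif1a* group. Means were 1.12 ± 0.530 CPM (SD, n = 5) and 1.14 ± 0.575 CPM (n = 5). The log2FC was -0.11 (SE 0.42, adjusted *p* = 0.907), and its 95% limits of -1.02 to 0.80 still held a fold change beyond the threshold in either direction. *Car4* was scarcer still, with 4, 0, 5, 2 and 6 counts in AAV::eGFP and 8, 0, 6, 3 and 11 counts in AAV::*nsHif1a* retinas, and did not pass the filter. Both groups held 1 retina with 0 counts of *Car4*, at a depth where 3 counts correspond to 0.186 to 0.233 CPM, a limit that covers counting error only.

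*Car12* varied most from retina to retina. Its level was 2.60, 1.68, 32, 15.8 and 8.43 CPM in AAV::eGFP retinas 1 to 5. In AAV::*nsHif1a* retinas it was 5.77, 11.1, 19.7, 48.5 and 23.2 CPM. The highest value was 19 times the lowest within the AAV::eGFP group, and both groups overlapped over most of their range. The log2FC of 1.13 (SE 0.69, 95% limits -0.38 to 2.63) was the largest in size of the 6 genes tested, and it did not pass the test (adjusted *p* = 0.376).

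**Figure D1:**
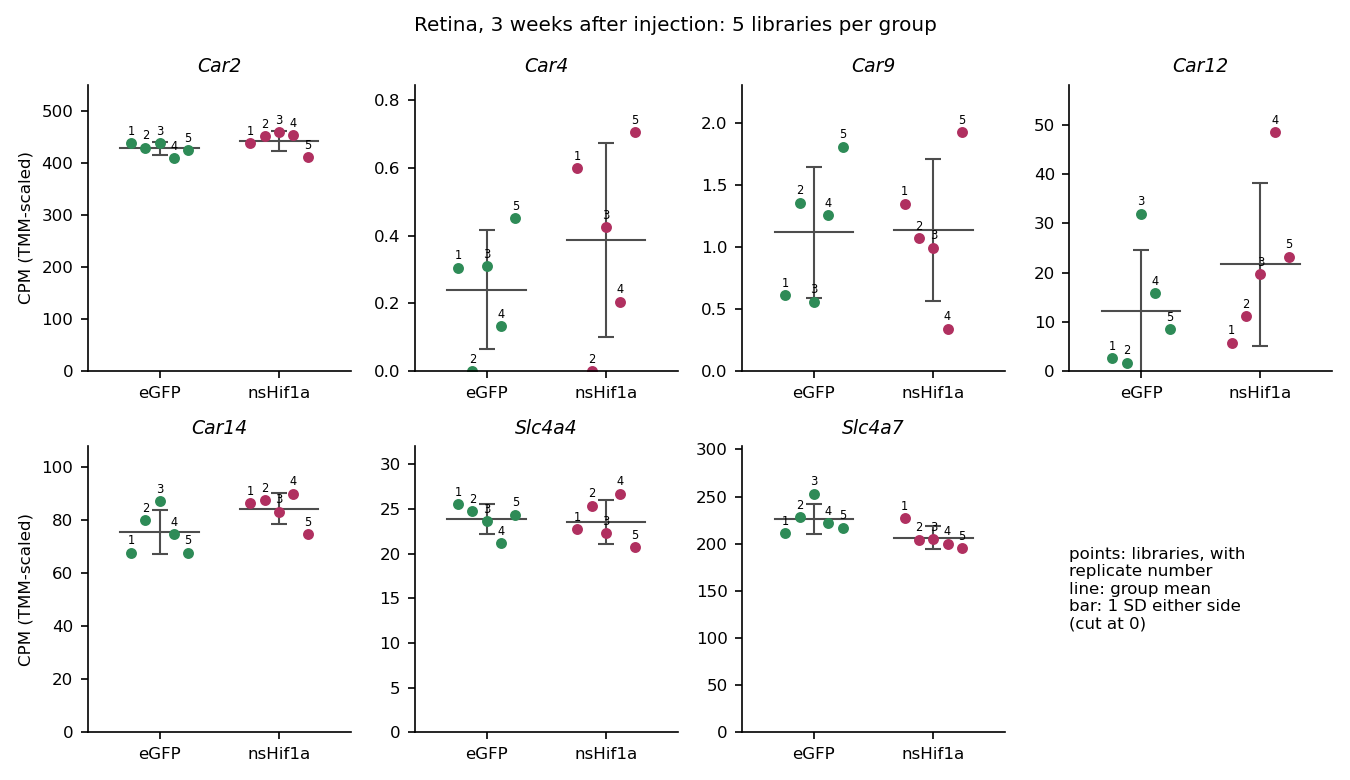
Levels of the 7 genes in single retinas (CPM, linear axes from 0, one axis per gene) for AAV::eGFP (green) and AAV::*nsHif1a* (red), with the replicate number above each point, the group mean as a line and 1 SD as a bar (n = 5 per group). Both groups overlap in every panel, and *Car12* has the widest spread, from 1.68 to 48.5 CPM.

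The level of *Car12* moved with that of the retinal pigment epithelium, the pigmented layer behind the photoreceptors, which can stay on a dissected retina. The summed level of 10 markers of this layer, which include the visual cycle genes *Rpe65*, *Lrat* and *Rgr* and the transport protein gene *Ttr*, was 66.1, 43.5, 780, 337 and 240 CPM in AAV::eGFP retinas 1 to 5. In AAV::*nsHif1a* retinas it was 67.9, 45.4, 404, 920 and 194 CPM. None of the 10 markers was at 0 in either group, and none of the 9 that were tested was called. In the AAV::eGFP group the retinas had the same order for *Car12* as for the marker sum. In the AAV::*nsHif1a* group retina 4 was highest in both, and the order differed in the other four. The genes whose log2 CPM followed *Car12* most closely over the 10 retinas were *Trf* (transferrin, Pearson's r = 0.97), *Tmem98* (r = 0.96) and *Slc1a1*, a glutamate transporter gene (r = 0.95). These are descriptions across libraries that share tissue and dissection. Of the 9 markers tested, *Ttr* (r = 0.90), *Slc6a20a* (r = 0.89), *Lrat* (r = 0.86), *Rgr* (r = 0.85) and *Rpe65* (r = 0.84) ranked between 27 and 76 among all genes tested. *Rdh5* (r = 0.78), *Tyr* (r = 0.73), *Pmel* (r = 0.63) and *Mlana* (r = 0.39) followed less closely, at ranks of 198 to 3272.

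Set against the markers, *Car12* had another pattern. Its level was 3.93%, 3.86%, 4.10%, 4.69% and 3.52% of the marker sum in AAV::eGFP retinas 1 to 5. In AAV::*nsHif1a* retinas it was 8.51%, 24.4%, 4.88%, 5.28% and 12%. These shares did not overlap between the groups. For how many other genes the same would hold against these markers was not counted, so the missing overlap is no evidence of a rise of *Car12*. AAV::*nsHif1a* retinas 3 and 4, which had the most marker RNA, lay nearest to the AAV::eGFP retinas. This ratio was chosen after the values were seen and was not tested on its own. With the mean of the markers as a covariate, also chosen after the values were seen, the log2FC of *Car12* was 0.71 and did not pass (adjusted *p* = 0.186). With sex class as a covariate it was 2.96 (adjusted *p* = 0.246), since the AAV::eGFP retinas with *Xist* counts were those with the least *Car12*. The part of the pigment epithelium in the level of *Car12* was otherwise not tested.

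**Figure D2:**
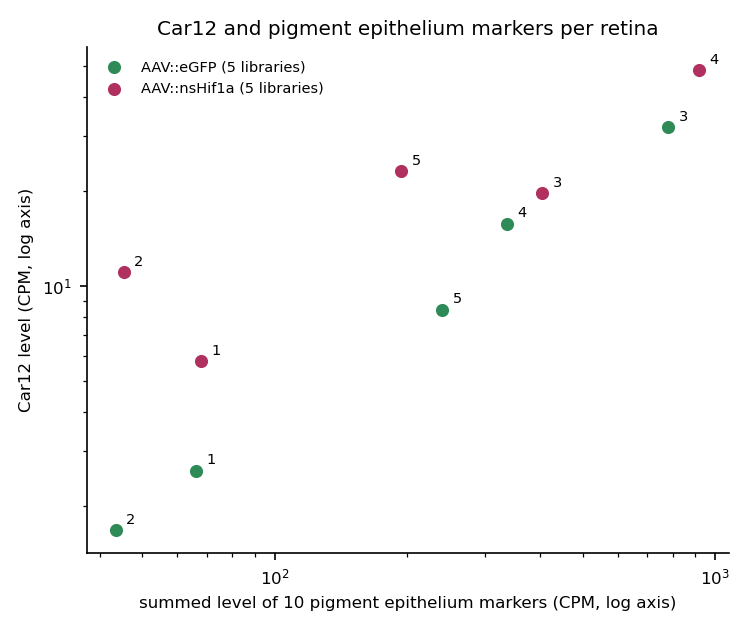
*Car12* level against the summed level of 10 pigment epithelium markers (both in CPM on log axes) in 5 AAV::eGFP (green) and 5 AAV::*nsHif1a* (red) retinas, each point 1 retina with its replicate number. Both rise together over the retinas, and AAV::*nsHif1a* retinas 2, 5 and 1 lie farthest above the AAV::eGFP points, at 24.4%, 12% and 8.51% of the marker sum.

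The bicarbonate cotransporters varied less from retina to retina. *Slc4a4* had 334, 384, 382, 321 and 324 counts in AAV::eGFP retinas and 304, 403, 314, 392 and 323 counts in AAV::*nsHif1a* retinas. Its log2FC was -0.01 (SE 0.08, 95% limits -0.17 to 0.16, adjusted *p* = 0.968), with both limits inside the fold change threshold. *Slc4a7* was at 211, 228, 253, 222 and 217 CPM in AAV::eGFP retinas and at 227, 204, 205, 200 and 196 CPM in AAV::*nsHif1a* retinas. Both groups overlapped, with means of 226 ± 16.2 CPM (SD, n = 5) and 206 ± 12.1 CPM (n = 5). The log2FC of -0.12 (SE 0.05, 95% limits -0.23 to -0.01) had an unadjusted *p* of 0.0332 and did not pass the adjustment (adjusted *p* = 0.185). Per length, *Slc4a7* (25.8 ± 1.83 CPM per kb) had less RNA than *Car14* in AAV::eGFP retinas and *Slc4a4* (1.88 ± 0.131 CPM per kb) far less than either, while *Slc4a4* and *Car12* (2.89 ± 2.97 CPM per kb) did not differ beyond the spread of *Car12*. *Car9* (0.534 ± 0.253 CPM per kb) and *Car4* (0.110 ± 0.0809 CPM per kb) came last. All 10 rod markers had a negative log2FC in the retina (median -0.21) and 4 of them passed the adjusted *p*, with 0 called; the part of rod RNA in the value of *Slc4a7* was not tested.

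The second question was whether the same factor changed these genes in 661W cells, a single line in culture. Only *Slc4a4* and *Slc4a7* passed the filter there. Neither was called, where 1.27% of the 15962 genes tested were called (1.21% up and 0.0626% down). The carbonic anhydrases among the 7 genes were all below the filter, and their counts are therefore given library by library. At such counts, intervals cover counting error only, and as the reads carry no molecular identifiers they are not independent molecules.

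*Car9* was all but silent with eGFP and was counted in every library with *nsHif1a*. It had 0, 1, 0 and 0 counts in the eGFP libraries 1 to 4 and 13, 6, 8 and 4 counts in the *nsHif1a* libraries. Groups did not overlap, which among genes with a count but below the filter was so, with *nsHif1a* higher, for 1.22%. Summed over the libraries and set against the total counts, 31 counts against 1 are a ratio of 29.1, with an exact 95% interval of 4.85 to 1185 from counting error. An exact permutation test of the CPM (two-sided, n = 4 per group) gave *p* = 0.0286, the smallest this design allows. Every gene whose groups do not overlap reaches this value, *Slc4a7* among them, so that it adds nothing to the missing overlap. The test also takes no account of the replicate sets. The level reached was 0.464 ± 0.204 CPM (SD, n = 4). On the scaling over all 18 libraries this was 0.207 ± 0.0912 CPM per kb, below the 0.534 and 0.545 CPM per kb of the AAV::eGFP and AAV::*nsHif1a* retinas. Without the filter on low counts, the limma fit gave a log2FC of 3.40 (SE 0.50, adjusted *p* = 0.00679), which would be called. As most eGFP libraries had 0 counts, this log2FC depends on the small offset added to counts before logs are taken. Its SE is therefore a poor measure of the spread between libraries. The share of all genes called in that fit is not given here. With the counts of replicates 1 and 2, and those of 3 and 4, summed to 1 sample each, an alternative chosen after the data were seen, the log2FC was 4.08 and *Car9* was not called (adjusted *p* = 0.568). That fit leaves so few samples per group that it cannot decide whether *Car9* differed.

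The other carbonic anhydrases were too scarce for a clear result. *Car12* had 5, 1, 4 and 7 counts with eGFP and 27, 19, 5 and 15 counts with *nsHif1a*. The groups overlapped through *nsHif1a* library 3, the ratio of summed counts was 3.64 (95% interval 2.11 to 6.62) and the exact permutation test gave *p* = 0.0857. Without that library, the only one of its group within the range of eGFP, *Car12* passed the filter through the high libraries and had a log2FC of 2.43 (adjusted *p* = 0.00333), which is no support for a difference. It was also tested without each eGFP library and was not called (adjusted *p* from 0.111 to 0.248). *Car2* had 1, 2, 2 and 1 counts with eGFP and 11, 3, 3 and 2 counts with *nsHif1a*, a ratio of 2.97 (1.14 to 9.09) and an exact permutation *p* of 0.0571. *Car14* had 3, 0, 0 and 0 counts with eGFP and 6, 6, 6 and 0 counts with *nsHif1a*, a ratio of 5.63 (1.64 to 29.8) and an exact permutation *p* of 0.143. In *Car2* most of the sum came from *nsHif1a* library 1, and in *Car14* each group held a library at 0. *Car4* had 0 counts in all 8 libraries, which allows a level of up to 0.0233 CPM over all of them. On the scaling over all 18 libraries, *Car2* was at 0.0469 ± 0.0165 CPM per kb in the cells with eGFP, against 226 CPM per kb in AAV::eGFP retinas.

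*Slc4a4* was expressed in the cells and differed between the replicate sets. It had 169, 132, 105 and 76 counts with eGFP and 271, 204, 121 and 117 counts with *nsHif1a*. In CPM these were 10.1, 8.56, 6.18 and 5.71 with eGFP and 15.2, 14.3, 7.08 and 6.93 with *nsHif1a*. Each *nsHif1a* library lay above the eGFP library of the same number, and replicates 1 and 2 lay above 3 and 4 in both groups. The log2FC was 0.47 (SE 0.30, 95% limits -0.20 to 1.14, adjusted *p* = 0.401). With the 2 sets of replicates as a covariate it was 0.50 and would be called (adjusted *p* = 0.0214), whereas with each set summed to 1 sample per group it was 0.42 and was not (adjusted *p* = 0.897). Within replicates 1 and 2 the log2FC was 0.66 (SE 0.12, adjusted *p* = 0.00018) and within 3 and 4 it was 0.23 (SE 0.16, adjusted *p* = 0.496), and the difference between both did not pass (-0.43, SE 0.20, adjusted *p* = 0.146). The direction was thus the same in both sets. The SE and adjusted *p* within a set measure the spread between its libraries, which resembled each other closely. They do not measure how far the effect varies between sets. The fit with the sets as a covariate also counts each library as a separate sample. For these fits the share of all genes called is not given here. In fits with no term for the sets, the omission of a library left the sets unequal between the groups, and the log2FC was then -0.05 and -0.04 without *nsHif1a* library 1 or 2 and 0.91 without library 3 or 4 (adjusted *p* = 0.00894 and 0.00817). The genes that followed *Slc4a4* most closely in log2 CPM over the 8 libraries were *Maged1*, *Bbx* and *H2-Q6* (Pearson's r = 0.99 for each), a description across libraries that share the split into sets.

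*Slc4a7* was the most abundant of these genes in the cells, with 4.54 ± 0.0467 CPM per kb (SD, n = 4) with eGFP against 0.559 ± 0.157 CPM per kb for *Slc4a4* and at most 0.0620 CPM per kb on average for the other genes. Its level was 42.3, 43.6, 42.9 and 43.4 CPM with eGFP and 40.3, 38.3, 42.0 and 40.9 CPM with *nsHif1a*. All *nsHif1a* libraries lay below all eGFP libraries, as happened in one direction or the other for 13.6% of the genes tested. The step was small, with a log2FC of -0.09 (SE 0.05, 95% limits -0.20 to 0.01) that did not pass (adjusted *p* = 0.292).

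**Figure D3:**
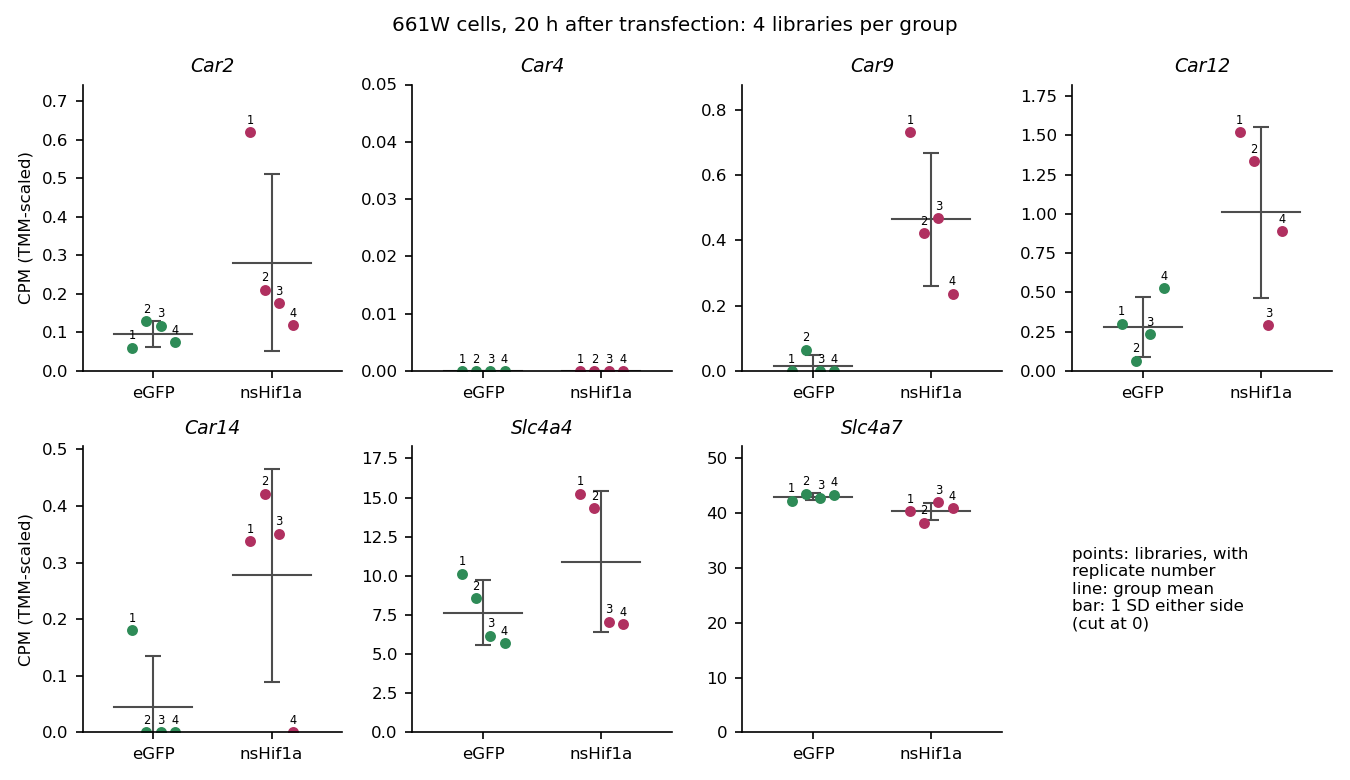
Levels of the 7 genes in single libraries of 661W cells (CPM, linear axes from 0, one axis per gene) with eGFP (green) or *nsHif1a* (red), with the replicate number above each point, the group mean as a line and 1 SD as a bar (n = 4 per group). *Car9* with *nsHif1a* lies above all eGFP libraries, *Slc4a4* splits by replicates 1 and 2 against 3 and 4 in both groups, and *Car4* is at 0.

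The third comparison asked whether the effect of *nsHif1a* differed between retina and cells. It was tested as an interaction over all 18 libraries. *Car9* passed the filter of this fit through 3 AAV::eGFP and 4 AAV::*nsHif1a* retinas, which reached the cutoff of 0.654 CPM, whereas 1 of the 8 libraries of the cells did. The values of the scarce enzymes in the cells rest on the low counts given above, and where these are 0 on the offset. *Car9* was the only one of the 6 genes tested that passed, against 2.33% of the 20999 genes tested, 1.25% with the larger effect in the cells. Its effect was smaller in the retina by 3.43 on the log2 scale (difference -3.43, SE 0.74, 95% limits -4.98 to -1.88, adjusted *p* = 0.0215). The cell part of this difference was a log2FC of 3.35 (SE 0.63, adjusted *p* = 0.00485) in the same fit, where 1.3% of all genes tested were called up. It comes from the same counts of *Car9*, 1 and 31, as the values above and is no separate support for them. The difference stayed past the threshold without any single library (adjusted *p* from 0.00246 to 0.0469) and when the replicate number entered as a block (adjusted *p* = 0.0458). It could not be given by DESeq2, which assigned *Car9* no adjusted *p*, nor with a minimum count of 30, under which *Car9* was not tested. For the other genes the differences did not pass. They were -0.88 for *Car2* (95% limits -1.81 to 0.04, adjusted *p* = 0.326), -0.61 for *Car12* (-4.95 to 3.72, adjusted *p* = 0.933) and -1.51 for *Car14* (-3.38 to 0.35, adjusted *p* = 0.418). *Slc4a4* differed by -0.32 (-0.88 to 0.24, adjusted *p* = 0.605) and *Slc4a7* by -0.04 (-0.21 to 0.14, adjusted *p* = 0.886). Tissue and cells also differed in vector, promoter, time and share of expressing cells, which cannot be told apart from the tissue here.

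**Figure D4:**
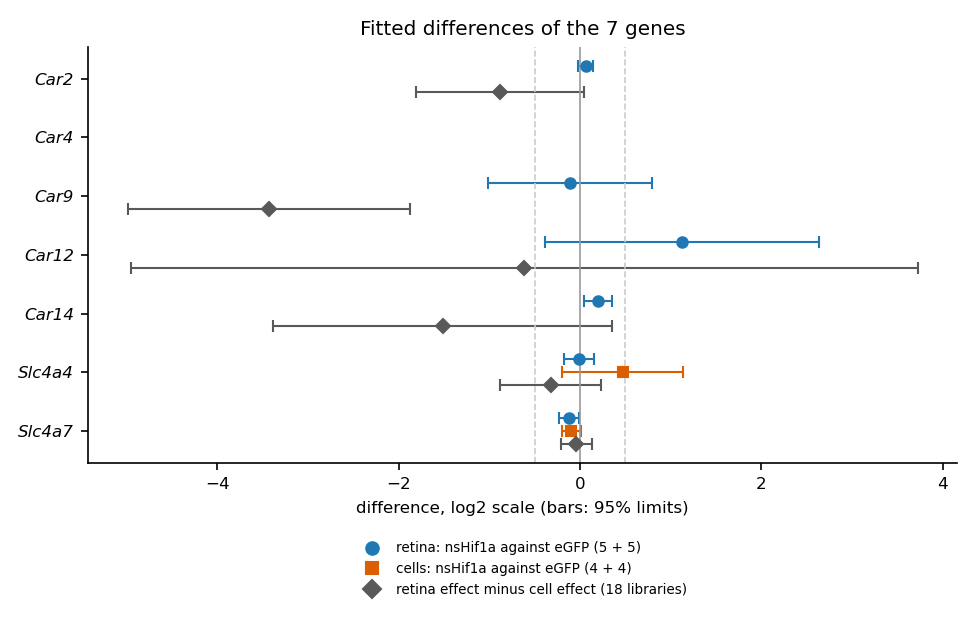
Fitted differences on the log2 scale with 95% limits for the retina (blue circles, 5 against 5), the cells (orange squares, 4 against 4, only the 2 genes past the filter) and the retina effect minus the cell effect (grey diamonds, 18 libraries), with dashed lines at the fold change threshold of 0.5. *Car4* was not tested, and among the grey diamonds only that of *Car9*, at -3.43, has limits clear of 0.

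The wider acid-base machinery was covered by 6 lists with 90 genes. In the retina 66 of them were tested, 1 was called up (1.52%, near the 1.08% of all genes) and 0 down, with a median log2FC of 0.0065 against -0.0021 over all genes tested. In the cells 47 were tested, 3 were called up (6.38%, against 1.21% of all genes) and 0 down, with a median of -0.071 against -0.0013. Under the replicate block the latter count was 1. Of 10 established HIF target genes, among them *Bnip3*, *Vegfa* and the glucose transporter gene *Slc2a1*, 9 were called up in the retina (*Pgk1* stayed below the fold change threshold) and 7 in the cells (not *Ldha*, *Egln3* and *Pgk1*). The acid-base lists and these controls were written with earlier results of these data known. Neither the shares called in the lists nor the direction of the controls is therefore independent evidence.

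The call shared by both experiments was *Slc16a3*, which encodes MCT4, the transporter that exports lactate together with a proton. Its level was 70.5, 65.6, 71.9, 67.2 and 69.1 CPM in AAV::eGFP retinas and 125, 204, 158, 156 and 200 CPM in AAV::*nsHif1a* retinas. The lowest *nsHif1a* retina lay well above the highest eGFP retina, and *Slc16a3* rose with a log2FC of 1.29 (SE 0.11, adjusted *p* = 1.53e-04). In the cells it was at 25.6, 28.1, 20.8 and 23.5 CPM with eGFP and at 99.6, 90.1, 136 and 109 CPM with *nsHif1a*. Again the groups were apart, and the log2FC was 2.12 (SE 0.13, adjusted *p* = 1.09e-04). It was 1.82 within replicates 1 and 2 and 2.47 within 3 and 4. The limma fit gave a difference of 0.64 (SE 0.16, adjusted *p* = 0.00712) against the spread between libraries of a set. With 2 sets this does not measure how far the effect varies between sets. The call held in 20 of 21 alternatives and was lost with summed replicate pairs (2.15, adjusted *p* = 0.138). The effect was smaller in the retina by 0.86 (adjusted *p* = 0.0307), a difference that did not pass once replicate numbers were blocked (adjusted *p* = 0.0721). *Bsg*, whose product basigin escorts the lactate transporters to the membrane, had a log2FC of 0.34 in the retina (SE 0.04, adjusted *p* = 0.00103), with non-overlapping groups but below the fold change threshold. Of the 6 genes of lactate transport, 1 was called up in the retina and, of the 3 tested, 1 in the cells.

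The remaining lists held few calls. Among the 16 carbonic anhydrases, 11 were tested in the retina and 4 in the cells, and none was called (median log2FC 0.063 and 0.027). The 14 bicarbonate transporters gave 10 and 7 tested genes and no call (median -0.0035 and -0.0072). Of the 15 sodium-proton exchangers and their regulators, 10 were tested in each experiment. *Slc9a9*, an exchanger gene of endosomes, rose in the cells with a log2FC of 1.01 (SE 0.22, adjusted *p* = 0.0454), and this call was lost under the replicate block (adjusted *p* = 0.0612). In all, it held in 9 of 21 alternatives, in which the adjusted *p* ranged from 2.43e-05 to 0.89. *Slc9a7* had a log2FC of -0.35 in the retina (adjusted *p* = 0.0259), below the fold change threshold. *Slc9a7* is on the X chromosome, and with sex class as a covariate its log2FC was -0.21 (adjusted *p* = 0.254).

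Of the 25 subunits of the vacuolar proton pump, which acidifies endosomes and lysosomes, 19 were tested in the retina and 20 in the cells. None was called. A negative log2FC was found for 17 of the 20 in the cells (85%, against 50.3% of all genes tested) and for 8 of the 19 in the retina (42.1%, against 50.6%), counts that were not tested. Of the 14 proton sensors and channels, 10 were tested in the retina with no call and 3 in the cells with 1. *Asic1*, an acid-sensing cation channel gene, had 11, 14, 16 and 10 counts with eGFP and 35, 22, 47 and 37 counts with *nsHif1a*. It rose with a log2FC of 1.31 (SE 0.23, adjusted *p* = 0.0255), and under the replicate block it was not called (adjusted *p* = 0.0541). The call held in 16 of 20 alternatives, with an adjusted *p* from 0.00105 to 0.89. Its effect differed between retina and cells (-1.42, SE 0.23, adjusted *p* = 0.00367). The gene of the lists that was still called up in the cells under the block was *Slc16a3*.

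**Figure D5:**
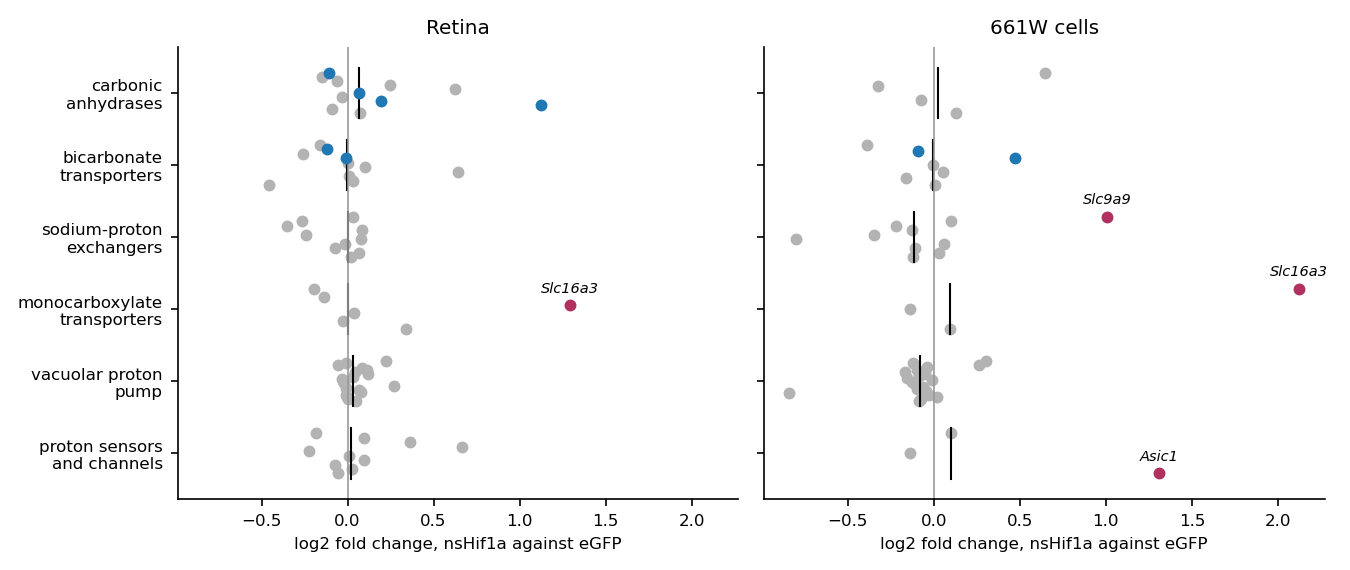
Log2FC of each tested gene of the 6 acid-base lists in the retina (left) and in 661W cells (right), 1 point per gene, with the list median as a black line, the described carbonic anhydrases and cotransporters in blue and called genes in red with their names. In both experiments the points gather around 0, and *Slc16a3* at 1.29 and 2.12 stands farthest to the right.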

How the data were processed

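Per the labels and the study's methods, the authors prepared stranded mRNA libraries, aligned the read pairs to GRCm39 by Rsubread and, with the basic gencode annotation M36, used featureCounts on the antisense strand to obtain counts per gene. The deposited values are whole-number counts, 1 table per experiment, without filter or normalization. From these counts, filterByExpr in edgeR 4.0.16 (minimum count 10) set aside low genes, TMM scaled the libraries, and voomWithQualityWeights values were fitted in limma 3.58.1 under R 4.3.3, separately for retina and cells and over all 18 libraries for the interaction. CPM values are TMM-scaled, log2 CPM includes a prior count of 2, and levels between genes are per kb of exon. In all, 3 counts corresponded to 0.168 to 0.233 CPM per library. Nothing in the labels says that the libraries of the cells came from separate cultures, so their *p*-values measure the spread between libraries, which may be technical.

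Exact permutation tests were used for single genes below the filter. Replicate numbers come from the labels. In the cells, same-numbered libraries deviated together (correlations of 0.227 to 0.269), and the block is given where it changes a call. Only 2 of the eGFP libraries correlated best with the *nsHif1a* library of their own number. Pairing by number was therefore not established beyond the replicate sets. Coordinates and windows are from gencode M39 on GRCm39, which held 78168 of the 78239 genes. The procedure was also run on simulated counts of genes past the filter, drawn as independent libraries without replicate sets. That run does not bear on the carbonic anhydrases below the filter. Alternatives were DESeq2 1.42.0, edgeR's quasi-likelihood test, no quality weights, other size factors, filters and fold change thresholds, the replicate block, sex class, γ-crystallin level and replicate sets as covariates, and the omission of single libraries. The pigment epithelium covariate, the cell contrast of the 18-library fit and summed replicate pairs were added after the data were seen. Summed pairs leave few samples per group, so that a call lost with them decides little. The genes, lists and tests were chosen with earlier results of these data known. By rule, the text names the 7 genes, *Hif1a*, list genes that were called, the HIF targets and the 3 genes most like the gene with the largest log2FC in each experiment. *Bsg* and *Slc9a7* were named after their values were seen. The rule for sequences asked for called genes, of which there were none.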

Additional observations from a re-analysis of the deposited data

Results flagged for a closer look

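Among 26 groups of 4 or 5 libraries with values of these genes, 3 held a library far from the others by Dixon's criterion. All 3 rest on counts of 0 to 6 in the cells. The criterion is met by chance in about 1 in 20 groups of continuous values, a rate that does not apply to such counts with ties. For *Car9* with eGFP, library 2 (1 count) stood apart from the other libraries, which had 0. The gap was the whole range (ratio 1), as it must be where only 1 library has counts. For *Car14* with eGFP the same held for library 1 with 3 counts (ratio 1). For *Car14* with *nsHif1a*, library 4 with 0 counts lay below the other libraries with 6 counts each, a gap of 0.887 of the range. The effect of *nsHif1a* on *Car9* differed between retina and cells by -3.43 on the log2 scale (SE 0.74, adjusted *p* = 0.0215, limma interaction over 18 libraries). *Car9* passed the filter of this fit through retinal libraries of both groups, and the cell part rests on 1 count against 31.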

How the results depend on the processing

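In the retina, 0 of the 7 genes were called under each of 22 alternatives. In the fits over the cells, 1 gene was called up without the filter on low counts (*Car9*), with the replicate sets as a covariate (*Slc4a4*), within replicates 1 and 2 (*Slc4a4*) and in the 18-library fit (*Car9*), and 0 to 2 with single libraries left out. *Slc4a4* and *Car12* were called without *nsHif1a* library 3, where *Car12* passed the filter through its high libraries. The number of genes whose effect was smaller in the retina, 1 in the reported fit, was 0 with DESeq2 and with a minimum count of 30, where *Car9* had no adjusted *p* or was not tested, and 1 to 4 without single libraries. It was 4 without *nsHif1a* library 3 or 4 of the cells. The share of all genes called in the fits without single libraries is not given here, so these counts are no result about the 7 genes as such.

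Over the acid-base lists, the retinal calls without a fold change threshold were 2 up and 1 down, and 1 to 2 up without single libraries. In the cells, the calls up numbered 1 with the replicate block, 0 with summed replicate pairs and 1 to 5 without single libraries (1 without eGFP library 1 or 2, and 5 without *nsHif1a* library 3), and the calls down 0 to 4 (4 without *nsHif1a* library 3 or 4). The share of all genes called in these alternative fits is not given here, so the shifts are no result about the lists as such. Their cause was not tested.

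Some directions turned. For *Car9* in the retina the log2FC was 0.031 with edgeR's quasi-likelihood test and 0.029 with DESeq2, 0.080 with the replicate block, 0.067 with sex class, 0.055 over the retinas with *Xist* counts, 0.26 with the γ-crystallin level and -0.31 to 0.17 without single libraries. For *Slc4a4* in the retina it was 0.017 with the γ-crystallin level and -0.057 to 0.021 without single libraries. In the cells *Slc4a4* ranged from -0.048 to 0.91, and in the interaction *Slc4a4* ranged from -0.89 to 0.037 and *Slc4a7* from -0.072 to 0.0074 without single libraries.

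In the retina, replicate numbers did not pair the libraries (correlations from -0.15 to 0.14), and under the block *Slc9a7* had an adjusted *p* of 0.0744. In the cells and the interaction the block changed no other call than those of *Slc9a9*, *Asic1* and the difference of *Slc16a3*. Depth limits what can be said of the carbonic anhydrases in the cells and of *Car4* and *Car9* in the retina.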
